A study of Homo sapiens with 8 samples.

Results

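The genes that clear drugs from cells were followed across 8 cancer cell lines, 7 efflux pumps (ABCB1, ABCC1, ABCC2, ABCC3, ABCC4, ABCC5 and ABCG2) and 3 cytochrome P450 3A enzymes (CYP3A4, CYP3A5 and CYP3A7). They were matched by symbol, 1 identifier each, and make up 10 of the 58202 identifiers in the deposited tables. The lines were H522 (non-small cell lung cancer), H661 (large cell lung cancer), H146 (small cell lung cancer), KLE and HEC59 (endometrial cancers), H716 (colorectal cancer of the cecum), 1321N1 (astrocytoma, a glial tumour) and COV318 (serous ovarian cancer). All express ERBB4, and each gave 1 library of total RNA after 48 hours in culture, with no treatment named in the labels. The series was designed around ibrutinib, a drug made against the kinase BTK, with 4 responding and 4 non-responding lines, but the labels do not say which line belongs to which, so response was not compared. Each line stands for 1 tumour.

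Efflux pumps of the ABC superfamily use ATP to move drugs and their conjugates out of the cell. ABCB1 encodes P-glycoprotein and ABCG2 encodes BCRP, which sit at the apical surface of gut, liver and barrier cells, and the ABCC genes encode the multidrug resistance proteins, which also export glutathione, glucuronide and nucleotide conjugates. CYP3A enzymes oxidize many drugs in the liver and gut, and ibrutinib is cleared mainly by CYP3A4. The nuclear receptors PXR (gene NR1I2) and CAR (gene NR1I3) are known to raise transcription of CYP3A genes, CYP2B6 and ABCB1 when foreign compounds bind.

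The CYP3A promoters are printed around the everted repeat to which PXR binds. The stretches are written in the direction of transcription, from RefSeq on GRCh38.p14, whereas the expression files were made on GRCh37. Capitals mark the bases at the fixed positions of the repeat, searched on both strands as TGAACT, any 6 bases and AGGTCA.
CYP3A4, chr7:99784315-99784374, minus strand: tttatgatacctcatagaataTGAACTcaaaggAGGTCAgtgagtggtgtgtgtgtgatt
CYP3A5, chr7:99680071-99680130, minus strand: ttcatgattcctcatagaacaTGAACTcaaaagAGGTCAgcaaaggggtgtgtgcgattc
CYP3A7, chr7:99735326-99735385, minus strand: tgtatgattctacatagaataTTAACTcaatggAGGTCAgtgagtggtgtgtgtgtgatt
The repeat began at -169 from the start site in CYP3A4, at -113 in CYP3A5 and at -168 in CYP3A7. CYP3A4 and CYP3A5 matched it in full and CYP3A7 carried 1 substitution, G2T, counted from 1 at the repeat's 5′ end. Of 35116 promoter windows of 300 bases, 3 held the full repeat (0.00854%), those of CYP3A4, CYP3A5 and ITGB1BP2. A match is a description of the letters and no evidence of binding.

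ABCB1 has 2 start windows in RefSeq, and its gene-level FPKM (sequenced fragments scaled to transcript length and library size) does not separate them. The 200 bases before each start are shown because this gene varied most among the pumps. Capitals mark a CCAAT box, searched as CCAAT on both strands, which 34.6% of windows hold.
ABCB1 upstream start, chr7:87713296-87713495, minus strand: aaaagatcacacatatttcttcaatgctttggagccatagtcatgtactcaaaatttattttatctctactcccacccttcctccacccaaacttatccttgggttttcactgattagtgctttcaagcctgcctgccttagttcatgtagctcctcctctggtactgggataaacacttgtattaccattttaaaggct
ABCB1 downstream start, chr7:87600885-87601084, minus strand: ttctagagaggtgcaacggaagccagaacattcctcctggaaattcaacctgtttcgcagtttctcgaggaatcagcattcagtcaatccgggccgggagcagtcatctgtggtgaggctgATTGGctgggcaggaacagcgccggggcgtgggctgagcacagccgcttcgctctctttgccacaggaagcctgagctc
The upstream window held no CCAAT box, and the downstream window held 2, of which the other lies outside the stretch shown. RefSeq windows were found for 8 of the 10 genes.

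The files hold FPKM and no counts, so absolute depth is unknown and counting intervals cannot be had. From the steps of low values, relative depth ran from 1 in KLE to 2.69 in 1321N1, with H716 at 1.27. By those steps H522, H661, KLE and H716 resembled each other more than the other 4 lines, and the labels give no batch. Detection here means an FPKM of 1 or more, which 12205 to 13300 genes reached per line. Because each line has 1 library, differences between single lines have no replicate error and no test. In RNA from a whole culture, fewer expressing cells and less RNA per cell cannot be told apart.

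Labelled tissues were checked against defining markers. CDH17, an intestinal cadherin, was at 137 in H716, while CDX1, FABP1 and ALPI were listed at 0 in every line. PAX8, a Mullerian transcription factor, was highest in HEC59 (185), COV318 (72.6) and KLE (45.7). SOX17 and EMX2 of the same list were detected only in these 3 lines. WT1, also of that list, was at 12.4 in the lung line H522 and at 0.408 in HEC59. NKX2-1, which marks lung lineage, was at 11.2 in H661 but at 0.0204 in H522 and 0.0167 in H146. In 1321N1 the glial marker GFAP was at 3.10 and OLIG1, S100B and AQP4 were listed at 0. The glial list did not single out 1321N1, since the lung line H146 had AQP4 at 4.46 and GFAP at 1.57. H716 and H146 shared neuroendocrine markers, with CHGA, which encodes a granin, at 15.4 and 7.59.

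Of the 10 genes, 7 were detected in at least 1 line: ABCB1, ABCC1, ABCC2, ABCC3, ABCC4, ABCC5 and CYP3A5. ABCG2 stayed just under the threshold at its highest (0.978), and CYP3A4 and CYP3A7 stayed far under it. H716, the cecal line, detected all 7, including 6 at an FPKM of 5 or more. The other lines detected 3 or 4 each. CYP3A5 was detected in H716 alone, so H716 partly set the count of 7 that it is measured against.

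**Figure D1:**
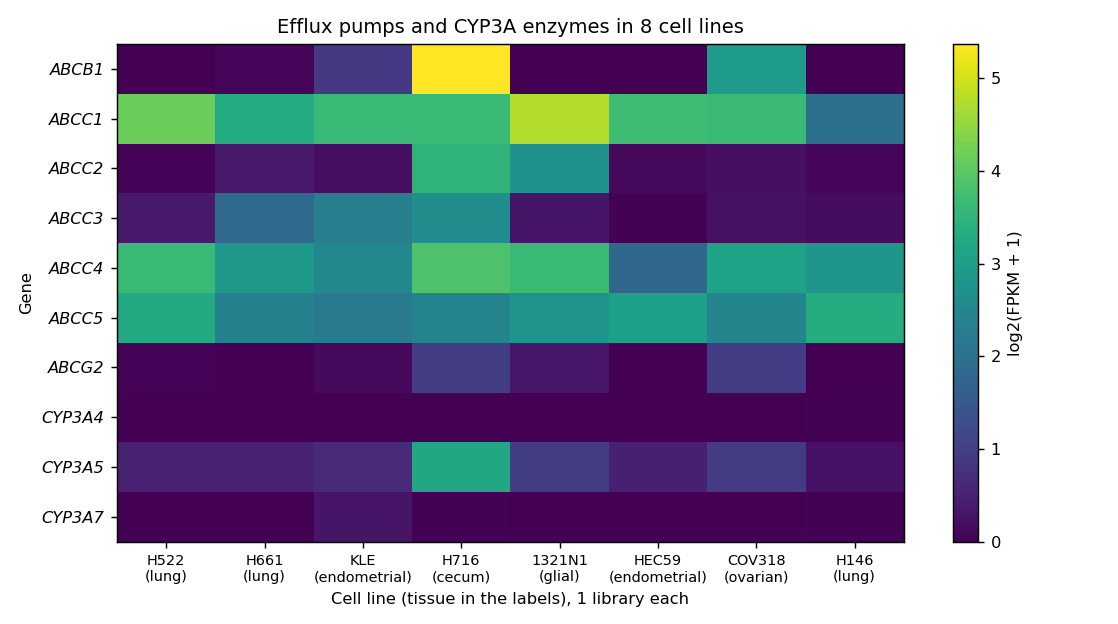
Level of each of the 10 genes (rows) in each of the 8 lines (columns, 1 library each), coloured by log2(FPKM + 1). The H716 column holds the brightest ABCB1 cell and the only bright CYP3A5 cell, ABCC1, ABCC4 and ABCC5 are coloured in every line, and the CYP3A4 row is dark throughout.

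ABCC1, ABCC4 and ABCC5 formed a set of pumps present in every line. ABCC1 encodes MRP1, a basolateral exporter of glutathione conjugates. Its FPKM was 26.1 in 1321N1, 17.1 in H522, 12.0 in HEC59, 11.7 in COV318, 11.4 in H716, 11.3 in KLE, 8.91 in H661 and 2.95 in H146. The 4 lines from HEC59 to KLE in that order lay within 1 FPKM of each other, 1321N1 stood highest and the small cell line H146 lowest. ABCC4 encodes MRP4, an exporter of cyclic nucleotides and nucleotide analogues. It was at 13.6 in H716, 11.5 in H522 and 1321N1, 7.65 in COV318, 6.40 in H661 and 6.19 in H146, with KLE (4.70) and HEC59 (2.41) lowest. Both endometrial lines were therefore at the bottom of the order.

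ABCC5, which encodes MRP5, another exporter of cyclic nucleotides, varied least among the 6 pumps detected in 2 lines or more. It was at 9.10 in H146, 8.76 in H522, 7.23 in HEC59, 5.84 in 1321N1, 4.43 in COV318 and 4.36 in H716, and lowest in H661 (4.04) and KLE (3.72). Its SD over the lines was 0.440 on the log2(FPKM + 1) scale, at the 17.0th percentile of the 15650 genes detected in 2 lines or more. The SD of ABCC4 lay at the 53.3th percentile and that of ABCC1 at the 62.9th. These 3 pumps made up 74.9% (COV318) to 99.5% (HEC59) of the summed FPKM of the 7 pumps in every line but H716, where ABCB1 had the widest share.

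ABCB1, ABCC2 and ABCC3 were instead high in a few lines. ABCB1 was at 40.4 in H716, 6.74 in COV318 and 0.857 in KLE, then 0.0502 in H661, 0.00964 in H146, 0.00703 in H522 and 0.00413 in 1321N1, and was listed at 0 in HEC59. H716 stood 5.99-fold above COV318, and only these 2 lines passed detection. Its SD of 1.98 (log2 scale) was at the 95.3th percentile of the genes tested. ABCB1 alone made up 46.8% of the summed pump FPKM in H716, 21.2% in COV318 and 3.46% in KLE.

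ABCC2 encodes MRP2, the apical pump that carries bilirubin glucuronide into bile. It was at 10.3 in H716 and 5.79 in 1321N1. In the other 6 lines it ran from 0.0425 in H522 to 0.314 in H661, so it shared H716 with ABCB1 as its highest line, while its other high line was 1321N1 and not COV318. ABCC3 encodes MRP3, a basolateral exporter of glucuronides and bile salts. It was at 5.24 in H716, 3.93 in KLE and 2.63 in H661, at 0.301 in H522, 0.233 in 1321N1, 0.181 in COV318 and 0.127 in H146, and at 0.0175 in HEC59. H716 was thus the only line with ABCB1, ABCC2 and ABCC3 all detected.

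ABCG2 did not reach detection in any line. It was at 0.978 in H716 and 0.898 in COV318, both written in the files with 3 digits, at 0.258 in 1321N1, 0.104 in KLE and 0.0353 in H522, and listed at 0 in H661, HEC59 and H146. Its highest lines were the same 2 as those of ABCB1.

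**Figure D2:**
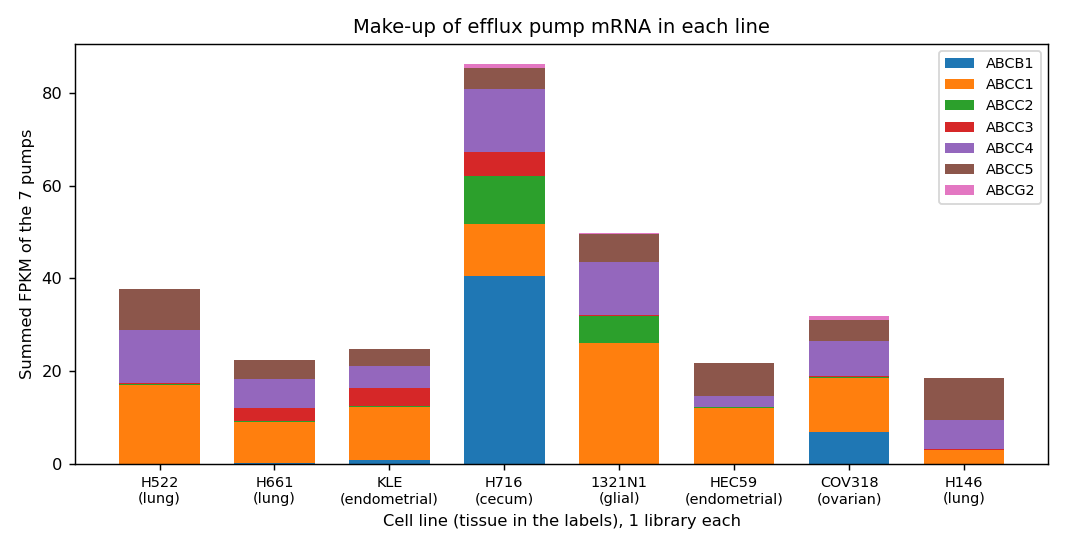
Summed FPKM of the 7 pumps in each line (bar height, 1 library each), divided by pump. H716 had the tallest bar at 86.2, of which ABCB1 was the widest share, and the other bars ran from 18.4 in H146 to 49.7 in 1321N1, with ABCC1, ABCC4 and ABCC5 as most of their height.

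Across the 7 pumps, summed FPKM was 86.2 in H716, 49.7 in 1321N1, 37.7 in H522, 31.8 in COV318, 24.8 in KLE, 22.3 in H661, 21.8 in HEC59 and 18.4 in H146. H716 was the highest line for 6 of the 10 genes: ABCB1, ABCC2, ABCC3, ABCC4, ABCG2 and CYP3A5. Among the 6 genes that passed the filter for testing (detected in 2 lines or more), it was the highest for 4, whereas it was the highest for 13.6% of the 15650 genes that passed. For 3 of those 6, ABCB1, ABCC2 and ABCC3, H716 lay at least 2 (log2) above the median of the other 7 lines, as it did for 4.76% of all genes that passed. KLE fell just short of that distance for ABCC3, at 1.999. By the same measure 1321N1 was high for ABCC2 (4.89% of all genes in that line) and COV318 for ABCB1 (4.12%). ABCB1 passed the filter only through H716 and COV318, and ABCC2 only through H716 and 1321N1. The filter thus partly set these counts, since those are the lines in which the 2 genes were counted as high. The 10 genes were also chosen with earlier results of these data known. These counts describe single libraries and carry no test.

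Whether the pumps differ by tissue could be tested for lung (3 lines against 5) and endometrium (2 against 6), by limma on log2(FPKM + 1) across all 15650 genes. In the lung comparison 0 of 6 pumps passed an adjusted p of 0.05, as did 0.0256% of all genes, 0 of 6 had an unadjusted p under 0.05 (5.94% of all genes), and 0 of 6 had groups that did not overlap (4.3% of all genes). In the endometrial comparison 0 of 6 passed (0.00639% of all genes), and 1 of 6, ABCC4, had an unadjusted p under 0.05 (4.82% of all genes). The median difference over the 6 pumps was -0.511 (log2) for lung and -0.541 for endometrial lines, against -0.0234 and -0.105 over all genes. Upper-quartile scaling brought the latter to -0.00408. ABCB1 and ABCC2 passed the filter only through H716, COV318 or 1321N1, which are in the other group of both comparisons. The filter thus partly set the negative differences of these genes, and the medians over the pumps do not show lower levels in either tissue.

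ABCC4 in the endometrial lines had the smallest unadjusted p of the 6 pumps, though not the smallest adjusted p. It was at 4.70 and 2.41 in the endometrial lines KLE and HEC59 and at 6.19 to 13.6 in the other 6, so the groups did not overlap, as for 6.96% of all genes. In log2(FPKM + 1) the endometrial mean was 2.14 ± 0.52 (SD, n = 2) against 3.33 ± 0.44 (SD, n = 6). The difference of -1.19 (SE 0.45, limma 95% interval -2.21 to -0.18) had an adjusted p of 0.908 and did not pass. Without overlap in the lower direction were 4.53% of all genes in that comparison.

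ABCB1 had the widest gap in means without a call. In the lung lines its log2 mean was 0.03 ± 0.03 (SD, n = 3) and in the others 1.84 ± 2.31 (SD, n = 5). The difference of -1.81 (SE 1.14) had a limma 95% interval of -4.36 to 0.74 and an adjusted p of 0.870. The groups overlapped, since 1321N1 and HEC59 were as low as the lung lines. ABCC2 differed by -1.19 in the lung lines (limma 95% interval -3.05 to 0.67, adjusted p = 0.878). ABCC1 differed by -0.72 (limma 95% interval -1.90 to 0.45, adjusted p = 0.879), with its lowest value in H146 and its next highest in H522, both lung lines. Leaving out H146 moved this difference to -0.14 and leaving out H522 to -1.23. The other differences lay between -0.99 for ABCC2 and 0.23 for ABCC3 in the endometrial lines, and between -0.30 for ABCC3 and 0.40 for ABCC5 in the lung lines. Intervals this wide leave differences of over 2-fold possible in either group, and do not show equal levels. Each line is a separate tumour, and the group of other lines mixes several tissues. The p-values therefore measure a spread between tumours and between tissues together, and not that between tumours of 1 tissue.

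**Figure D3:**
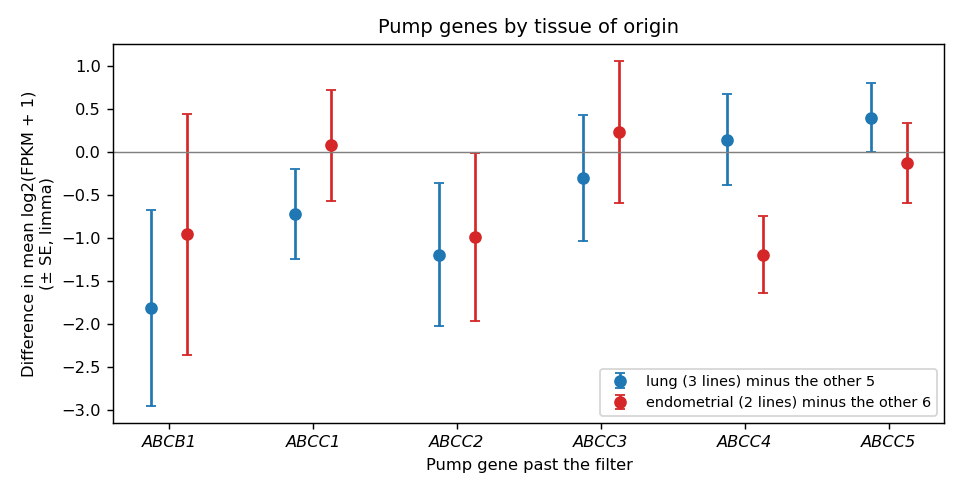
Difference in mean log2(FPKM + 1) for the 6 pumps that passed the filter, lung lines (3) minus the other 5 and endometrial lines (2) minus the other 6, with bars of ± 1 SE from limma. ABCC4 in the endometrial lines, at -1.19, is the point farthest from 0 relative to its bar, and no point passed an adjusted p of 0.05.

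Among the CYP3A enzymes, CYP3A5 was the only one detected. It was at 8.28 in H716, 0.977 in 1321N1, 0.931 in COV318, 0.578 in KLE, 0.413 in H661, 0.408 in H522, 0.382 in HEC59 and 0.194 in H146. H716 stood 8.47-fold above the next line, and 1321N1 and COV318 lay just under detection. CYP3A4, the main enzyme of ibrutinib clearance, was listed at 0 in 7 lines and at 0.0170 in H146. CYP3A7, the fetal liver form, was at 0.232 in KLE, at 0.0219 in H716, 0.0157 in H146 and 0.0103 in 1321N1, and listed at 0 in the other 4. These 3 enzymes and ABCG2 did not pass the filter. In the limma fit without a filter none of the 4 passed in either comparison, with CYP3A5 at -0.84 (log2) for lung (adjusted p = 0.828) and -0.50 for endometrial lines (adjusted p = 0.903), and ABCG2 at -0.46 (adjusted p = 0.828) and -0.31 (adjusted p = 0.903).

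Reads from these copies may be shared. Over their coding sequences CYP3A4 and CYP3A7 were 94.6% identical and CYP3A4 and CYP3A5 89.5% identical (GENCODE v29). Of 50-base windows of CYP3A4, 11.3% occurred unchanged in CYP3A7 and 5.14% in CYP3A5. The sources used here do not say how shared reads were assigned, so the low values of CYP3A4 and CYP3A7 are uncertain. CYP3A43, the remaining gene of the cluster, was at 0.0371 in 1321N1 and listed at 0 elsewhere. ABCB1 and its nearest copy ABCB4 were 77.5% identical, with 3.14% of such windows of ABCB1 in ABCB4.

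The genes beside ABCB1 on chromosome 7 were examined after its level in H716 was seen. RUNDC3B overlaps ABCB1 on the opposite strand and was at 9.28 in H716, with 0.600 (KLE) as its next value. ABCB4, which encodes a phospholipid exporter of bile, was at 1.88 in H716 and at most 0.956 elsewhere. Of the other 6 among the 4 nearest protein-coding genes on each side, 0 had their highest value in H716. SLC25A40, for example, was at 11.3 in H716 and 17.5 in COV318. Whether reads were assigned by strand is not given, so reads in the overlap of RUNDC3B and ABCB1 cannot be told apart. Of the 8 protein-coding genes nearest to CYP3A5, 0 had their highest value in H716, and ZSCAN25 beside it was at 3.95 there and at 2.97 to 7.02 in the other lines. Among these 8, CYP3A4, CYP3A7, CYP3A43, OR2AE1 and GS1-259H13.2 did not reach detection in any line. H716 was the highest line for 13.6% of the genes detected in 2 lines or more. A count of 0 among so few neighbours of ABCB1 or CYP3A5 therefore says little.

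Other drug-metabolizing CYPs were as uneven. Of 13 listed, 5 were detected in at least 1 line and 4 passed the filter, and 0 passed limma's adjusted p of 0.05 in either comparison. CYP2B6, which like CYP3A genes is a target of CAR and PXR, was at 86.6 in H716 and at most 0.543 in the others. CYP1B1, an AHR target that oxidizes hydrocarbons and estrogens, was highest in COV318 (208) and KLE (193), followed by H716 (67.2) and H522 (20.2), and was at most 0.436 elsewhere. CYP1A1, another AHR target, was detected only in KLE (4.00) and HEC59 (1.83). CYP2J2 and CYP2E1 were highest in H146 at 2.83 and 2.85, and were at 0 and 0.0789 in H716. H716 was thus the highest line for CYP3A5 and CYP2B6, but not for CYP1B1, CYP1A1, CYP2J2 or CYP2E1.

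PXR mRNA was near 0 throughout. NR1I2 was at 0.0530 in H146 and listed at 0 in the other 7 lines, H716 included. NR1I3 ran from 0.377 in HEC59 to 1.88 in COV318, with H716 at 1.02, sixth in the order. AHR, the receptor for dioxins, was at 157 in KLE, 67.9 in H716, 29.98 in COV318, 18.4 in HEC59 and 13.0 in H146, and at 0.652 to 1.96 in 1321N1, H522 and H661. Of the 20 regulators 15 passed the filter, 0 passed limma's threshold in either comparison, and the median difference was -0.124 (log2) for lung and -0.176 for endometrial lines. FOXA1, a pioneer factor, was at 35.2 in H716 and 19.3 in H146. HNF4A, a hepatic and intestinal factor chosen after its values were seen, was highest in H716 at 16.1 and at most 1.75 elsewhere.

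**Figure D4:**
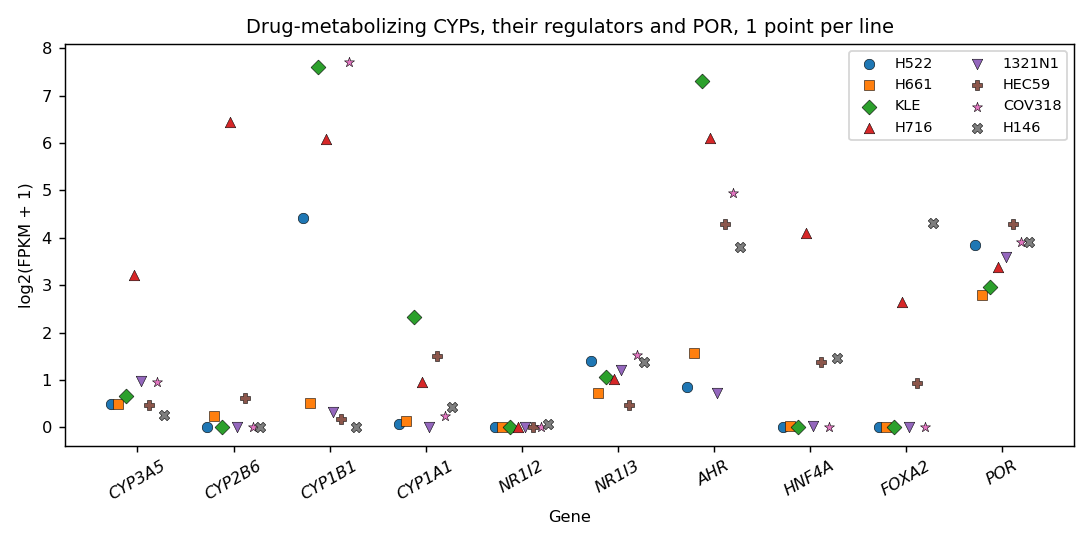
Level of CYP3A5, 3 other drug-metabolizing CYPs, 5 regulators and POR in log2(FPKM + 1), 1 point per line, with marker shape and colour giving the line. H716 (red triangles) is highest for CYP3A5, CYP2B6 and HNF4A, while NR1I2 lies at or near 0 in all 8 lines and POR is present in all 8.

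The electron donors of CYP enzymes were present in nearly all lines. POR, the reductase that all microsomal CYPs require, ran from 5.89 in H661 to 18.5 in HEC59, with H716 at 9.45. CYB5A, which encodes cytochrome b5, was at 82.9 in H146 and 14.6 in H716 but at 0.186 in 1321N1. CYB5B ran from 58.4 to 183 and CYB5R3 from 39.1 to 161, and 0 of the 4 donors passed limma's threshold in either comparison.

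Targets of NRF2 (gene NFE2L2), a factor known to raise ABCC genes, were compared with the pumps. NFE2L2 was highest in H522 at 329 and lowest in H146 at 37.2, with H716 at 100. NQO1, a quinone reductase and NRF2 target, was at 373 in H716, 217 in H522, 151 in 1321N1, 80.7 in H661, 64.5 in COV318, 60.8 in KLE, 13.5 in HEC59 and 6.30 in H146. As a description over the 8 lines, Pearson's r of NQO1 ran from -0.413 with ABCC5 to 0.778 with ABCC4 over the 6 pumps, and that of NFE2L2 itself from -0.233 with ABCC2 to 0.485 with ABCC1 (0.0849 with ABCC4). AKR1C1, an aldo-keto reductase of the same list, was at 81.6 in 1321N1 and 33.9 in H716, the 2 lines high in ABCC2, and at most 2.93 elsewhere. HMOX1 was highest in H522 at 25.6 and at 0.385 in H716. Of 9 targets that passed the filter, 0 passed limma's threshold in either comparison. In the endometrial lines 8 of 9 had a lower mean (median -0.806, log2, against -0.105 over all genes). The share of all genes lower there was not counted. The endometrial lines also differed from each other. Over the 10 listed targets mean log2(FPKM + 1) was 2.18 in HEC59, the lowest line. It was 3.55 in KLE, within the range of the lines from other tissues (2.48 to 4.55).

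Exporters and uptake carriers outside the 10 genes were also followed across the lines. In these lists 6 exporters and 7 carriers passed the filter, and of them only SLCO4A1 was highest in H716. The share over all genes that passed was 13.6%, from which a count of 1 among so few genes cannot be told apart. The counts that follow include genes that did not pass. Of 12 other exporters, 9 were detected in some line and H716 was highest for 1, ABCB4. MVP, the major vault protein, was at 13.7 in 1321N1 and 4.16 in H716, ABCA2 was at 19.5 in 1321N1 and 11.2 in H716, and SLC47A1 was at 4.04 in H522 and listed at 0 in H716. Of 15 uptake carriers, 10 were detected and H716 was highest for 2, among them SLCO4A1 at 18.7. SLCO3A1 was highest in H146 at 22.5 and SLCO1A2 in COV318 at 13.0. In both lists 0 genes passed limma's threshold in either comparison.

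Scaffold proteins that hold pumps at the apical membrane were mixed. SLC9A3R1, which encodes the NHERF1 scaffold, was at 144 in H716 and at 6.13 to 48.5 in the others, and SLC9A3R2 was at 19.1 in H716 and at 1.20 to 6.76 in the others. MSN, which encodes moesin, was at 0.0533 in H146 and at 67.5 to 340 in the other lines. Of 5 such genes that passed the filter, 0 passed limma's threshold in either comparison.

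Of the gut and liver markers, CDH17 and ALB were high in H716 and most others were not. Of 6 enterocyte markers 3 were detected there (CDH17, VIL1 and CDX2), and their summed FPKM was 139.5 against 0.0192 to 8.735 in the other lines. Nearly all of that sum was CDH17, and VIL1 was higher in H146 (8.74), the line with the lowest pump sum, than in H716 (1.07). Of 6 hepatocyte markers 2 were detected there, ALB at 80.3 and TTR at 1.12, with a sum of 82.1 against 0 to 3.04. APOA1 and TF were listed at 0 in H716, APOB was at 0.00272, and SERPINA1 was higher in 1321N1 (1.63) than in H716 (0.660). The part of these markers in the levels of the pumps and CYP3A5 was not tested. Immune markers summed to at most 14.3, nearly all CD68, and endothelial markers to at most 2.59.

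Among the 6 pumps and CYP3A5, likeness across the 8 lines was described without a test. CYP3A5 had r = 0.904 with ABCB1 and 0.836 with ABCC2, and these were 0.573 and 0.635 without H716. ABCC3 and ABCC5 had r = -0.734, and -0.739 without H716. All points share a library with every other gene of the line, and 8 lines are few. ERBB4, the receptor the series is about, was at 102 in H522, 76.1 in H716 and 13.4 in H146, and its r was between 0.0669 with ABCC5 and 0.544 with ABCC1.

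The genes most like each pump were taken as the 3 highest Pearson's r over the 8 lines among genes that ranged over at least 2 (log2). For ABCB1 the closest was SST, which encodes somatostatin (r = 0.996), at 475 in H716, 36.4 in COV318 and 3.01 in KLE, followed by HRASLS and RNF128. For ABCC2 it was VSNL1, a neuronal calcium sensor (r = 0.998), at 552 in H716 and 142 in 1321N1, followed by PLCXD3 and GALNT5. ABCC1 was closest to WDFY1 (r = 0.960), GOLGA1 and TMEM43, ABCC4 to PPM1G (r = 0.962), ITGB1BP1 and SUV39H1, and ABCC5 to PHF21B (r = 0.956), AD000092.3 and DUS1L. ABCC3 was closest to an identifier listed as LOC100505984 (r = 0.943), AL157871.2 and PDIA3P. With 8 lines, between 5 genes for ABCC5 and 59 genes for ABCC2 reached an r of 0.9, so a high r here singles out no gene.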

How the data were processed

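RNA from 8 cell lines was sequenced, 1 library per line. The authors deposited FPKM values for 58202 Ensembl identifiers with symbols, per the file headers. The submitters' processing notes name CASAVA 1.4, TopHat2 2.0.8, SAMtools 1.0 and GRCh37. The program that made FPKM, its annotation and its use of strand were not given in the sources used here. FPKM scales with library composition and holds no read totals, so depth is known only relatively.

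The 10 genes have 1 identifier each. The log2(FPKM + 1) scale was used, on which fold changes of low genes come out too small. Detection means an FPKM of 1, and genes detected in 2 lines or more entered limma 3.58.1 (eBayes with trend, two-sided) in R 4.3.3, with Benjamini-Hochberg adjustment over all genes and a threshold of 0.05. The fit was checked only for returning shifts of known size, on average, in simulated normally distributed values. Genes near 0 in most lines and high in a few were not simulated. Groups follow the labelled tissue. The named genes are the 10 genes, 8 fixed regulators, copies and ERBB4, and of each of 17 lists those of widest range, and the 3 most like genes per pump. The members and lists were chosen with earlier results of these data known. Alternatives changed the pseudocount, filter, scaling, a term for read-step sets, and left out each line. Sequences are from RefSeq GRCh38.p14 and GENCODE v29, and no coordinates were carried between builds. Some listed regulators are not reported here.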

Additional observations from a re-analysis of the deposited data

Results flagged for a closer look

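For 3 of the 10 genes the highest line stood apart from the other 7, judged by its gap to the nearest line as a share of the whole range on the log2(FPKM + 1) scale by Dixon's 95% critical value, which chance passes in about 1 of 20 groups. CYP3A5 in H716 had a gap share of 0.754, at 8.28 against at most 0.977. CYP3A7 in KLE had 0.896, at 0.232 against at most 0.0219, and CYP3A4 in H146 had 1, at 0.0170 against 0 in all others, a share that any value above 0 would give. The values of CYP3A4 and CYP3A7 are all under detection. The same rule is passed by 33.8% of the 35074 genes that vary over the lines and by 8.12% of the 15650 genes tested, so 3 of 10 is near the share for genes that include low ones. ABCB1 in H716 had 0.450 and did not pass.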

How the results depend on the processing

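Each of 12 results (6 pumps in 2 tissue comparisons) was recomputed under up to 15 alternatives, 166 values in all. None passed an adjusted p of 0.05 under any of them (smallest limma adjusted p = 0.734), 157 kept their direction and 9 changed it, all for differences that were not called. With a pseudocount of 0.1, ABCC3 in the endometrial lines was -0.0379. Leaving out single lines moved ABCC3 from -0.826 to 0.0867 in the lung and from -0.908 to 1.37 in the endometrial comparison, ABCC4 from -0.157 to 0.367, ABCC1 from -1.233 to -0.137 and ABCC5 from 0.226 to 0.728 in the lung comparison, and ABCC1 from -0.244 to 0.311 and ABCC5 from -0.526 to 0.276 in the endometrial comparison. ABCB1, ABCC2 and ABCC3 could not be tested under the filter of 4 lines, nor ABCB1 and ABCC2 without H716, nor ABCB1 without COV318 and ABCC2 without 1321N1. Over all genes, 4 were called for lung and 1 for endometrial lines. The counts were 11 (lung) with a pseudocount of 0.1, 2 and 4 with a pseudocount of 5, 1 and 20 with no filter, 2 and 0 with the filter of 4 lines, 2 (lung) with a term for the read-step sets, and 1 to 16 and 1 to 30 when single lines were left out. Where an endometrial line was left out, the remaining line was assumed to vary like the others. Of the 10 genes, 7 were detected in some line at an FPKM of 1 or of 5, 8 at 0.5, and 6 to 7 when single lines were left out (6 without H716). H716 was highest for 6 of the 10 genes under upper-quartile scaling and without mitochondrial genes, both chosen after seeing the data. A further alternative chosen then, its own read-step set alone, gives at least 6 by construction. No paired analysis was possible because the lines are separate tumours with 1 library each. FPKM without counts limits what can be said of values under detection.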
